A study of Mus musculus with 11 samples.

Results

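MHC class I genes and the genes of their peptide loading were followed in clonotype+ Treg cells, as 10 rows chosen by name among the 52997 of the deposited gene table. The 10 members were the heavy chain genes H2-K1, H2-D1, H2-Q4, H2-Q7 and H2-T23, the light chain gene B2m, the peptide transporter genes Tap1 and Tap2, the tapasin gene Tapbp, and Nlrc5. All 10 had a row, and all 10 passed the filter on low counts. The cells were CD45.2+ Treg cells of vTreg53 Tg+ mice with a Foxp3-GFP knock-in. The transgene gives the T cell receptor of a single Treg clone from VAT. These cells had been moved from pooled spleen and lymph nodes of male donors into male CD45.1 recipients. The strain was C57BL/6 and the labels give an age of 15 weeks. Recipients were immunized 6 weeks after the transfer and boosted 1 week later, either with Fat1562, a peptide that stimulates this receptor, in adjuvant (adjuvant/Fat1562), or without peptide. The methods describe the second group as adjuvant alone, whereas the labels call it unimmunized and name PBS. The term adjuvant alone is used here. If the labels hold, the changes with the peptide given below, and the interaction, would also include the effect of adjuvant. By the methods, the first injection was under the skin in complete Freund's adjuvant, and the boost was intraperitoneal in incomplete Freund's adjuvant. Donor cells of the clonotype were sorted 1 week after the boost, 1000 per library. They came from spleen and lymph nodes (Spl/LN) or from epididymal visceral adipose tissue (VAT). Adjuvant alone gave 3 Spl/LN and 2 VAT libraries, and adjuvant/Fat1562 gave 3 of each. The methods call the libraries biological replicates, but neither they nor the labels tie each library to its own recipient, so the p-values measure the spread between these libraries.

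Classical class I molecules show peptides from the inside of the cell to CD8 T cells. A heavy chain pairs with beta-2 microglobulin in the endoplasmic reticulum, where the TAP1 and TAP2 transporter delivers peptides cut by the proteasome and tapasin holds the empty molecule at the transporter until a peptide binds. NLRC5 is the transactivator of class I genes, a relative of the class II transactivator CIITA, and it is recruited to their promoters by factors bound to the X and Y boxes of the SXY module. Interferon gamma induces Nlrc5, the heavy chains, the transporter and the immunoproteasome.

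The letters of such boxes were looked for in the 250 bases before the transcription start, in RefSeq promoters of GRCm38.p6, because class I transactivation works through them. Of the 10 members, 8 had a promoter entry, and Nlrc5 and Tap2 had none. The searched letters, on both strands, were GGGNNTNCC (kappa B-like), TTTCNNTT (interferon response-like), TGACG (X2-like) and CCAAT, whose reverse complement is ATTGG (Y-like), and the X2-like and Y-like letters were also searched as a pair at most 25 bases apart. The sequences below show the stretch that holds them for the most abundant heavy chain gene, for a non-classical one and for the light chain gene. Capitals mark the matches, in the order kappa B-like, interferon response-like, X2-like and Y-like for the heavy chain genes, and interferon response-like, X2-like and Y-like for B2m. A pair of overlapping kappa B-like matches shares the longest run of capitals in each heavy chain gene.
H2-K1 (chr17:34000351-34000483, minus strand): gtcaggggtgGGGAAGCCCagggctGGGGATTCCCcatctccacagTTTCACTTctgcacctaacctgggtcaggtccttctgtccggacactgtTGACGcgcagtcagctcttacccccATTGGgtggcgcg
H2-Q7 (chr17:35438997-35439127, plus strand): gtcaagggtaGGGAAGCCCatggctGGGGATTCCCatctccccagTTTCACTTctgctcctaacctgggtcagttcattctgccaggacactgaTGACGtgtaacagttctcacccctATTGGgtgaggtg
B2m (chr2:122147540-122147646, plus strand): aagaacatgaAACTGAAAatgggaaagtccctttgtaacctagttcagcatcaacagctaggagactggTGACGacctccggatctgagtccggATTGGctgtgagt

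The pair of X2-like and Y-like letters stood in the windows of H2-K1, H2-D1, H2-Q7 and B2m, with 20 bases between its boxes in H2-K1, H2-D1 and B2m and 19 in H2-Q7. It was found in 0.679% of 32851 promoters. The windows of H2-Q4, H2-T23, Tap1 and Tapbp did not hold the pair, which was searched only as TGACG followed by ATTGG or as the reverse complement. The X2-like and the Y-like letters did both stand in the windows of H2-Q4 and Tap1, but not in that order and spacing. Those of H2-T23 and Tapbp held the Y-like letters without the X2-like ones. The kappa B-like letters alone stood in 14.03% of promoters, the interferon response-like letters in 21.3%, the X2-like letters in 17.8% and the Y-like letters in 33.9%. All of them together stood in 8 windows, among them both start entries of H2-K1 and those of H2-D1 and H2-Q7. The other windows were those of H2-Aa, a class II gene, and of Nrarp, Oasl1 and Strbp.

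Total counts per library ran from 4490242 to 6570057. The sorted cells had the transcripts of Treg cells, with 7 of 7 Treg markers (Foxp3 and Cd4 among them) above the filter. Of the 2 CD8 T cell markers, Cd8a was at 0 in all 5 VAT libraries and at 6.39 normalized counts at most in Spl/LN, while Cd8b1 was at 171 and 193 in VAT with adjuvant alone and at 66.3 to 137 elsewhere. The summed level of 13 macrophage and dendritic cell markers was between 79.2 and 166 normalized counts in all 11 libraries, and none of the 13 was at 0 in every library. Of 6 B and plasma cell markers, the summed level was 163 to 1897 in VAT with adjuvant alone and 75.3 to 720 in the other libraries, with Jchain at 62.9 and 1731 in the 2 libraries of VAT with adjuvant alone. The summed level of 9 stromal, adipocyte and endothelial markers, most of it Pecam1, was 264 to 310 in VAT with adjuvant alone, 448 to 619 in VAT with adjuvant/Fat1562 and 494 to 591 in Spl/LN, and that of 7 neutrophil, natural killer and red cell markers was 1.25 to 50.4. The part of these markers in the results for the members was not tested. With adjuvant alone, 6 of 6 VAT Treg markers were higher in VAT and 4 of 6 lymphoid Treg markers were lower. Over all genes 9.09% were higher and 7.17% lower. With the peptide in VAT, 4 of the 6 VAT Treg markers were lower and 0 were higher, against 3.97% of all genes lower. Their summed level was 37998 to 38403 in VAT with adjuvant alone and 21625 to 28667 in VAT with adjuvant/Fat1562. The part of this difference in the results for the members was not tested either. In a bulk library fewer cells of a type and less RNA per cell cannot be told apart. Of 7 genes of dissociation and stress, 5 were higher in VAT with adjuvant alone (Fos, Jun, Egr1, Atf3 and Hspa1a), and 3 of the 7 fell with the peptide in VAT (Fos, Egr1 and Atf3). Jun had a log2 fold change of -0.87 there and was not called, and Hspa1a (2.16), Hspa1b (2.26) and Dnajb1 (0.32) had positive estimates and were not called. The summed level of the 7 was 1469 to 1587 in Spl/LN with adjuvant alone, 1590 to 3160 in Spl/LN with adjuvant/Fat1562, 10476 to 12387 in VAT with adjuvant alone and 3855 to 6219 in VAT with adjuvant/Fat1562. VAT was digested with collagenase. The part of this difference in the results for the members was not tested.

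Class I genes were among the most abundant transcripts of these cells. Normalized counts, used for all levels below, are counts divided by the library size after TMM scaling and brought to the mean library size. By mean normalized count, H2-K1 ranked 4, H2-D1 ranked 5 and B2m ranked 7 among the 12932 genes tested. The 10 members together took 2.27% to 2.49% of all counts in Spl/LN with adjuvant alone, 2.41% to 2.72% in Spl/LN with adjuvant/Fat1562, 2.79% to 2.99% in VAT with adjuvant alone and 2.15% to 2.46% in VAT with adjuvant/Fat1562. On the scale of normalized counts per kilobase of exon, the median level over the 11 libraries was 33915 for B2m, 14959 for H2-K1 and 13181 for H2-D1. It was 1453 for H2-Q7, 1234 for Tapbp, 876 for Tap1, 684 for Tap2 and 587 for H2-T23. Nlrc5 had a median level of 211 and H2-Q4 of 90.3. The ranges over libraries overlapped between H2-K1 and H2-D1, between H2-Q7 and Tapbp, between Tapbp and Tap1, between Tap1 and Tap2 and between Tap2 and H2-T23. The range of B2m lay above that of H2-K1, that of H2-D1 above that of H2-Q7, that of Nlrc5 below that of H2-T23 and that of H2-Q4 below that of Nlrc5.

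The heavy chain genes are close copies of each other, which limits what a count can be assigned to. In the annotation used here (GENCODE vM21, GRCm38), 8 members lie on chromosome 17, from Tapbp at 33915899-33929292 and H2-K1 at 33996017-34000347 through Tap1 at 34187553-34197225, Tap2 at 34203527-34216321, H2-D1 at 35262730-35267499, H2-Q4 at 35379617-35385290 and H2-Q7 at 35439155-35443773 to H2-T23 at 36029773-36032855. B2m lies on chromosome 2 at 122147686-122153083 and Nlrc5 on chromosome 8 at 94434356-94527272. Of all 38-base stretches of its transcripts, a read length, H2-K1 shared 16.1% with other genes, H2-D1 20.3%, H2-Q7 33.3%, H2-Q4 46.0% and H2-T23 20.9%. H2-Q7 shared most with H2-Q10 and H2-Q5, and H2-K1 most with H2-D1 and H2-Q10. For B2m the share was 0%, for Nlrc5 0.482%, for Tap1 3.78%, for Tap2 13.2% and for Tapbp 25.3%, so Tapbp shared more than H2-K1 or H2-D1. Exons of Tapbp overlap those of Gm19412 on the other strand over 904 bases and those of Zbtb22 on the same strand over 149. Exons of Tap2 overlap Gm15821 on the other strand over 533 bases, and those of Tap1 overlap Psmb9 on the other strand over 212. Whether the counting used strand is not given in the sources used here, so reads of these overlaps cannot be assigned to 1 gene.

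The first comparison asks how class I genes of the same clone differ between VAT and Spl/LN when no peptide was given. With adjuvant alone, 5 of the 10 members were higher in VAT and none was lower by edgeR's quasi-likelihood test (adjusted p under 0.05, adjusted over all 12932 genes tested). Over all genes 16.3% were called, 9.09% higher and 7.17% lower. The 5 were Nlrc5, the heavy chain genes H2-K1, H2-D1 and H2-Q7, and B2m, and the largest change was that of Nlrc5. The median log2 fold change of the 10 members was 0.35, against -0.03 over all genes. The transporter and tapasin genes had negative estimates.

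Nlrc5 was at 1728, 1999 and 1795 normalized counts in Spl/LN and at 3134 and 3184 in VAT. Both VAT libraries lay far above the Spl/LN libraries, and the log2 fold change was 0.78 ± 0.09 (SE, n = 2 and 3, adjusted p = 1.03e-05). H2-K1, a classical heavy chain, was at 38110, 43689 and 41154 in Spl/LN and at 60217 and 54136 in VAT. The log2 fold change of H2-K1 was 0.48 ± 0.09 (SE, adjusted p = 0.000732), with no overlap of the groups. H2-D1, the other classical heavy chain of this strain, was at 31342, 33994 and 31834 in Spl/LN and at 48517 and 45463 in VAT, a log2 fold change of 0.54 ± 0.08 (SE, adjusted p = 6.92e-05). The groups of H2-D1 did not overlap either. H2-Q7, a heavy chain of the Qa-2 type, which is non-classical, was at 5380, 6180 and 5846 in Spl/LN and at 8182 and 7492 in VAT, a log2 fold change of 0.43 ± 0.11 (SE, adjusted p = 0.00894). B2m was at 24403, 27060 and 28170 in Spl/LN and at 37340 and 33550 in VAT, a log2 fold change of 0.42 ± 0.09 (SE, adjusted p = 0.00244). For both genes each VAT library was above each Spl/LN library. Without VAT adjuvant alone replicate 1, which leaves 1 VAT library that is assumed to vary like the other groups, neither call held, with an adjusted p of 0.107 for H2-Q7 and 0.0561 for B2m.

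The remaining heavy chain genes were not called. H2-T23 encodes Qa-1, which presents leader peptides of other class I chains to CD94/NKG2A receptors, and its 2 VAT libraries were at 2229 and 1850 against 1534, 1862 and 1608 in Spl/LN, with an interval of the log2 fold change from 0.04 to 0.54 (95%, adjusted p = 0.109). For H2-Q4, another Q-region heavy chain, the groups overlapped, with 234 and 303 in VAT against 249, 240 and 246 in Spl/LN and an interval from -0.28 to 0.55.

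None of the 3 loading genes was called. Tap1 was at 4681 and 4148 in VAT and at 4492, 4934 and 5523 in Spl/LN, and its log2 fold change of -0.17 had an interval from -0.40 to 0.05 (95%). Tap2 was at 2517 and 2331 against 2334, 2817 and 2769, with an interval from -0.35 to 0.10. Tapbp was at 4427 and 3598 in VAT against 4478, 4903 and 5084 in Spl/LN. Its groups did not overlap, and the log2 fold change was -0.26 ± 0.10 (SE, adjusted p = 0.0801). With upper-quartile factors in place of TMM, the same edgeR test called Tapbp lower in VAT (-0.30, adjusted p = 0.0374). In all, the groups of 6 of the 10 members did not overlap, against 41.4% of all genes.

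**Figure D1:**
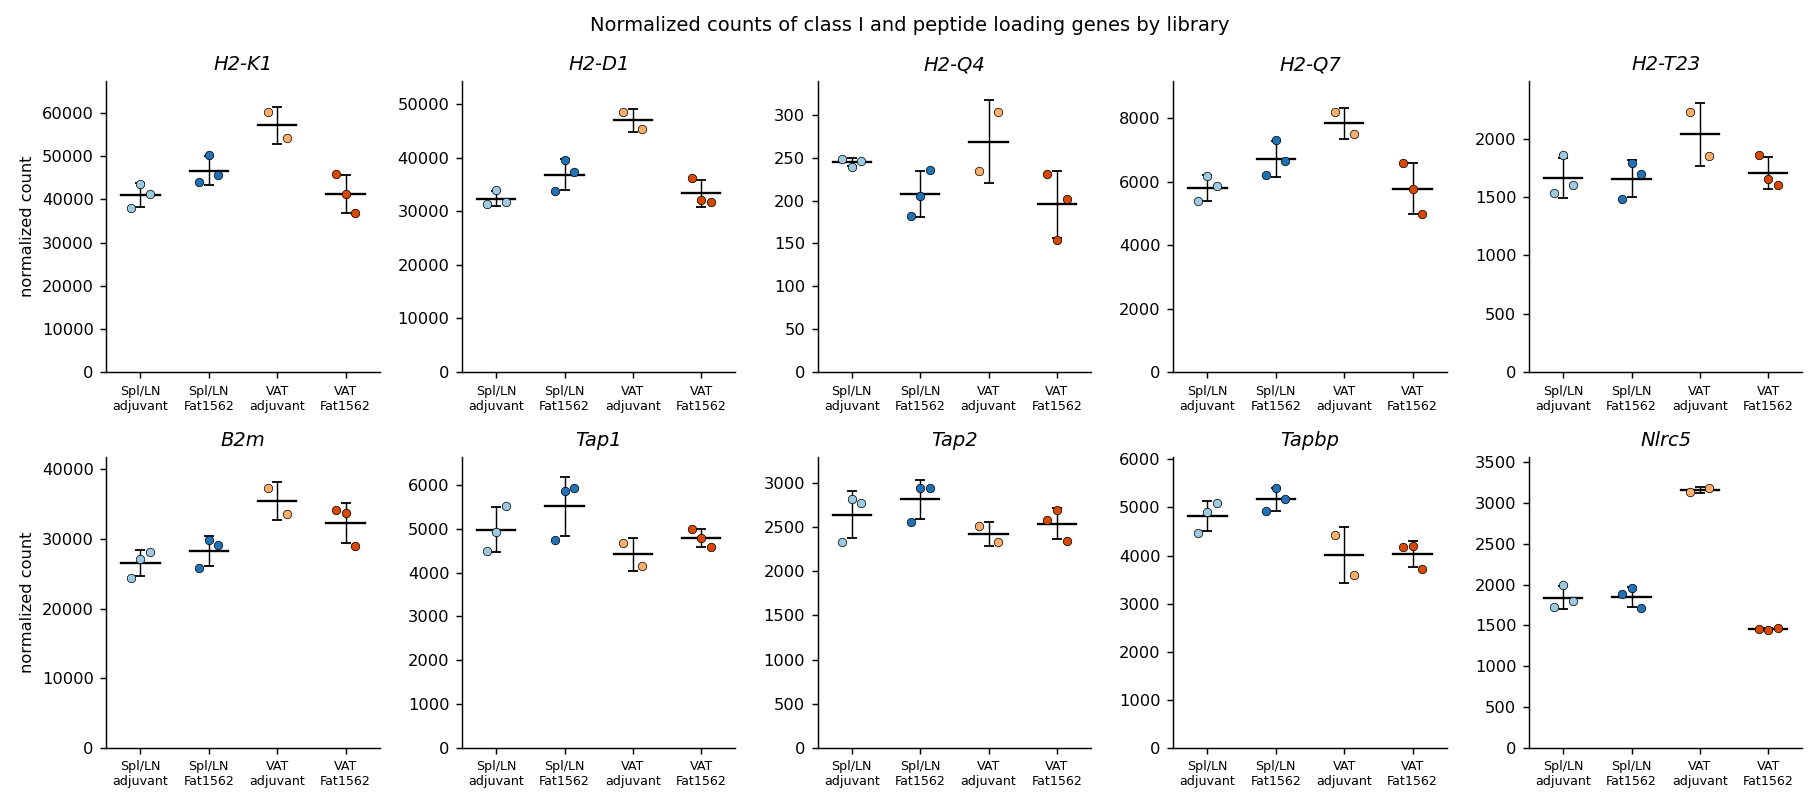
Normalized counts (vertical axis, from 0, a scale for each gene) of the 10 members in the 4 groups (horizontal axis), 1 point per library, with the mean as a line and the SD as bars. Nlrc5 is at 3134 and 3184 in VAT with adjuvant alone and between 1438 and 1999 in all other libraries, and H2-K1, H2-D1 and H2-Q7 are also at their highest in that group, whereas Tap1, Tap2 and Tapbp are not.

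The second comparison is the same between tissues after adjuvant/Fat1562, with other libraries. Here 2 of the 10 members were called, Nlrc5 and Tapbp, both lower in VAT, against 15% of all genes called and 6.73% called lower. Nlrc5 was at 1882, 1956 and 1712 normalized counts in Spl/LN and at 1451, 1438 and 1468 in VAT, so its order between the tissues was the opposite of that with adjuvant alone. The log2 fold change was -0.35 ± 0.08 (SE, n = 3 and 3, adjusted p = 0.00918). Without Spl/LN adjuvant/Fat1562 replicate 2 the call of Nlrc5 was lost, at a log2 fold change of -0.31 and an adjusted p of 0.0523. Tapbp was at 4931, 5407 and 5183 in Spl/LN and at 4179, 4200 and 3725 in VAT, a log2 fold change of -0.36 ± 0.09 (SE, adjusted p = 0.00952).

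The heavy and light chain genes were not called between the tissues after the peptide. H2-K1 was at 43950, 50347 and 45647 in Spl/LN and at 45783, 41189 and 36971 in VAT, with an interval of the log2 fold change from -0.34 to -0.01 (adjusted p = 0.151). For H2-D1 the interval ran from -0.29 to 0.00 and for H2-Q7 from -0.42 to -0.01. B2m, at 25799, 29902 and 29166 in Spl/LN and 34127, 33690 and 29047 in VAT, had an interval from 0.03 to 0.36 (adjusted p = 0.117). The groups overlapped for all 4 of these genes. Without a filter on low counts H2-K1 was called lower (-0.19, adjusted p = 0.0437). H2-Q7 was called lower without VAT adjuvant/Fat1562 replicate 1 (-0.32, adjusted p = 0.0421), and B2m was called higher without VAT adjuvant/Fat1562 replicate 3 (0.26, adjusted p = 0.0373). H2-Q4, H2-T23, Tap1 and Tap2 were not called either, with log2 fold changes from -0.20 for Tap1 to 0.04 for H2-T23. The groups of 2 members, those called, did not overlap, against 36.2% of all genes.

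The third comparison asks what the peptide did in VAT. It shares the VAT libraries with adjuvant alone with the first comparison, so a high value there enters both. With adjuvant/Fat1562, 4 of the 10 members were lower in VAT than with adjuvant alone and none was higher, against 8.3% of all genes called and 3.97% called lower. They were Nlrc5, H2-K1, H2-D1 and H2-Q7. The median log2 fold change of the 10 members was -0.35, against 0.01 over all genes.

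The change of Nlrc5 was the largest of the members. From 3134 and 3184 normalized counts it was at 1451, 1438 and 1468 with the peptide, a log2 fold change of -1.12 ± 0.09 (SE, n = 3 and 2, adjusted p = 9.03e-07), which means that it fell by 54.0%. The 3 libraries with the peptide lay close together, below all other libraries of the study. H2-K1 fell by 27.7%, from 60217 and 54136 to 45783, 41189 and 36971, a log2 fold change of -0.47 ± 0.09 (SE, adjusted p = 0.00205). H2-D1 fell by 28.9%, from 48517 and 45463 to 36281, 32057 and 31836, a log2 fold change of -0.49 ± 0.08 (SE, adjusted p = 0.000455). H2-Q7 fell by 26.3%, from 8182 and 7492 to 6595, 5765 and 4971, a log2 fold change of -0.44 ± 0.11 (SE, adjusted p = 0.0153). For all 4 genes each library with adjuvant alone lay above each library with the peptide. The call of H2-Q7 was lost without VAT adjuvant alone replicate 1 (adjusted p = 0.148), without VAT adjuvant/Fat1562 replicate 2 (0.0530) and without VAT adjuvant/Fat1562 replicate 3 (0.0567).

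B2m was not called. Its libraries with the peptide, at 34127, 33690 and 29047, overlapped those with adjuvant alone, at 37340 and 33550, and the interval of the log2 fold change ran from -0.32 to 0.05 (adjusted p = 0.415). H2-Q4 was at 231, 154 and 201 against 234 and 303, with no overlap and an interval from -0.87 to -0.04, but it was not called (adjusted p = 0.186). H2-T23 was not called, with an interval from -0.51 to -0.01. For the loading genes the estimates were near 0, with intervals from -0.11 to 0.35 for Tap1, from -0.15 to 0.29 for Tap2 and from -0.20 to 0.21 for Tapbp. The groups of 5 members did not overlap, against 41.1% of all genes.

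In Spl/LN the same comparison called none of the members by edgeR and none by DESeq2, against 3.98% of all genes by edgeR. At an unadjusted p under 0.05 there were 3 members, H2-K1, H2-D1 and H2-Q7, against 2371 of all 12932 genes tested. These 3 all had higher estimates after the peptide. H2-K1 was at 38110, 43689 and 41154 with adjuvant alone and at 43950, 50347 and 45647 with adjuvant/Fat1562, a log2 fold change of 0.19 ± 0.08 (SE, adjusted p = 0.205). For H2-D1 the log2 fold change was 0.19 ± 0.07 (SE, adjusted p = 0.149) and for H2-Q7 it was 0.21 ± 0.10 (SE, adjusted p = 0.250). Nlrc5 was at 1728, 1999 and 1795 against 1882, 1956 and 1712, with an interval from -0.17 to 0.18. The groups of 3 members, H2-K1, H2-Q7 and H2-Q4, did not overlap, against 21.2% of all genes.

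Whether the peptide acted differently in the 2 tissues was tested as the interaction of tissue and Fat1562, which is the log2 fold change with the peptide in VAT minus that in Spl/LN. It was called for 4 of the 10 members, all negative, against 3.72% of all genes called and 2.02% called negative. The interaction was -1.13 ± 0.13 (SE, adjusted p = 7.48e-05) for Nlrc5, -0.66 ± 0.12 (adjusted p = 0.00386) for H2-K1, -0.68 ± 0.10 (adjusted p = 0.00103) for H2-D1 and -0.65 ± 0.14 (adjusted p = 0.0160) for H2-Q7. The call of H2-Q7 was lost without Spl/LN adjuvant/Fat1562 replicate 2 (adjusted p = 0.0531) and without VAT adjuvant alone replicate 1 (0.0885). B2m had an interaction of -0.23 with an interval from -0.47 to 0.02. For Tap1, Tap2 and Tapbp the intervals ran from -0.33 to 0.28, from -0.32 to 0.27 and from -0.37 to 0.18. All 4 groups enter this test, so it is not separate evidence from the comparisons above.

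**Figure D2:**
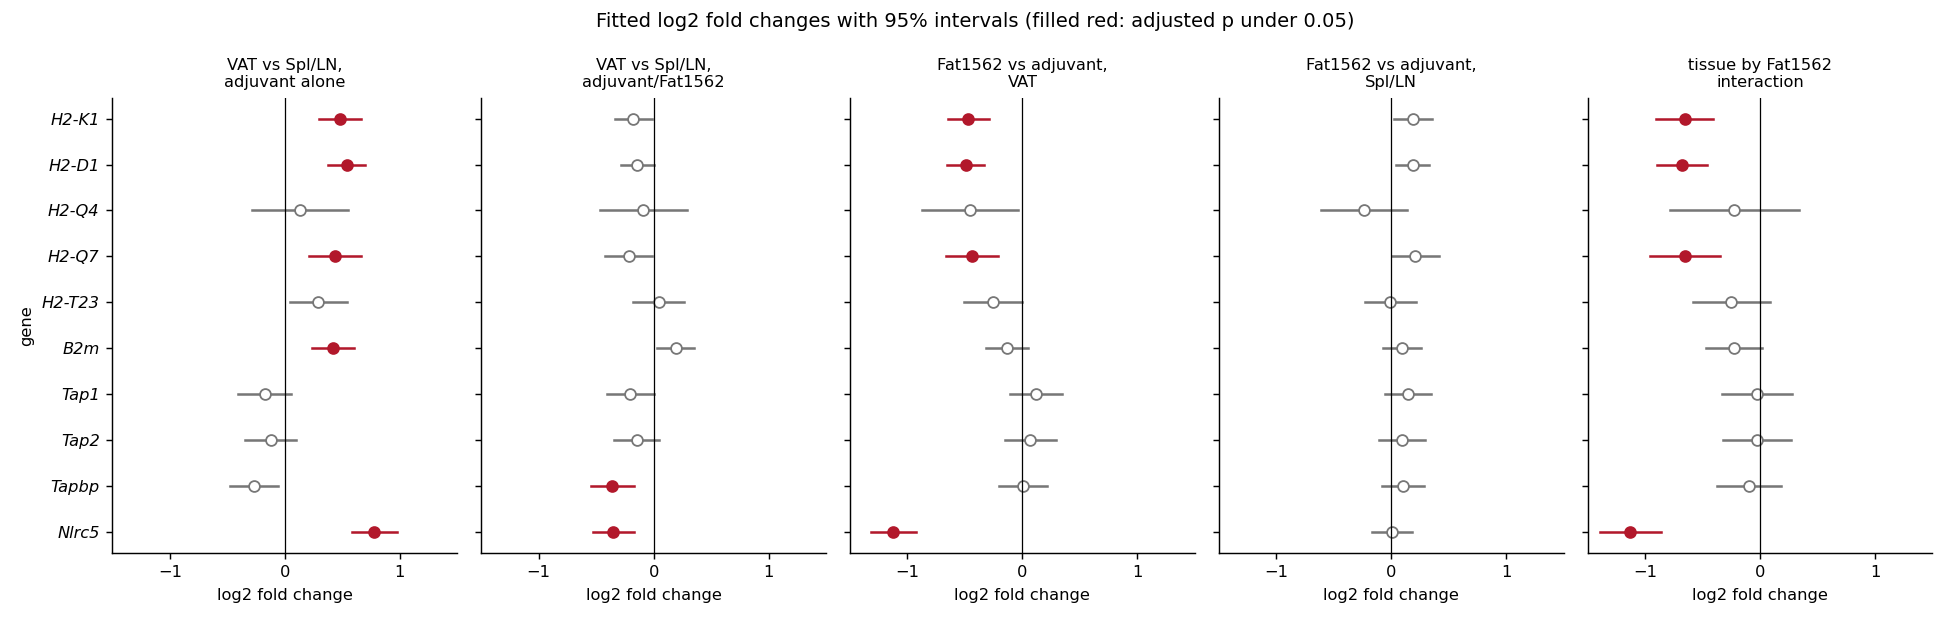
Log2 fold changes of the 10 members (horizontal axis) by gene (vertical axis) in the 4 comparisons and, in the last panel, the interaction, from 1 edgeR fit, with 95% intervals as lines and called genes in filled red. H2-K1, H2-D1, H2-Q7 and Nlrc5 lie above 0 in the first panel and below 0 in the third and the last, while Tap1, Tap2 and Tapbp lie at or below 0 in the first panel and near 0 in the third.

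Because reads of close copies can be split between heavy chain genes, the counts of 11 H2-K, H2-D and H2-Q genes were also summed to 1 feature and tested in the same fit. H2-K1 supplied 48.0% of that sum, H2-D1 38.5%, H2-Q7 6.77% and H2-Q6 5.19%. The sum was higher in VAT than in Spl/LN with adjuvant alone (log2 fold change 0.49 ± 0.08, SE, adjusted p = 0.000206) and lower in VAT with the peptide than with adjuvant alone (-0.49 ± 0.08, adjusted p = 0.000505), and its interaction was -0.66 ± 0.10 (adjusted p = 0.00141). Exchange of reads among these genes would leave the sum as it is. Reads left out of the counts because they match several genes would be missing from the sum too, and whether any were left out is not known. H2-K1 and H2-D1 make up most of the sum, so its changes largely repeat theirs.

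How the members were scaled against all other genes mattered for the heavy and light chains, and for the loading genes, in the tissue comparison. Of the 100 most abundant genes, 37 were called higher and 5 lower in VAT with adjuvant alone, and their median log2 fold change was 0.11. With the peptide in VAT 14 of the 100 were called higher and 22 lower, and in the interaction 2 were called positive and 18 negative, with medians of 0.02 and -0.13. H2-K1, H2-D1, H2-Q7 and B2m are among these 100 genes. Quantile normalization gives the genes at each rank the same value in every library. Under it, with limma, H2-D1 and B2m had a log2 fold change of 0 between the tissues with adjuvant alone, H2-K1 of 0.15 and H2-Q7 of 0.13, and none of these 4 was called, whereas Tap1 (-0.52), Tap2 (-0.32) and Tapbp (-0.62) were called lower in VAT. H2-K1 and H2-D1 were also not called under it after the peptide in VAT, at -0.18 and -0.16, nor in the interaction, at -0.30 and -0.16. Cyclic-loess normalization, which removes a trend of fold change with abundance and was chosen after seeing the data, kept the calls of H2-K1, H2-D1, H2-Q7 and Nlrc5 between the tissues with adjuvant alone at 0.24, 0.30, 0.29 and 0.70, lost that of B2m (0.19, adjusted p = 0.0601) and called Tap1 (-0.30) and Tapbp (-0.40) lower. After the peptide it also called H2-K1 (-0.28), H2-D1 (-0.23) and H2-Q7 (-0.27) lower in VAT than in Spl/LN. Nlrc5, ranked 419 by abundance, was called under both normalizations in every comparison where edgeR called it.

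Ratios of members within a library do not depend on a scaling that gives each library 1 factor, although they do change under quantile or cyclic-loess normalization. The log2 ratio of Tap1 plus Tap2 to H2-K1 plus H2-D1 was -3.35, -3.33 and -3.14 in Spl/LN with adjuvant alone, -3.41, -3.35 and -3.22 in Spl/LN with adjuvant/Fat1562, -3.92 and -3.94 in VAT with adjuvant alone, and -3.44, -3.29 and -3.31 in VAT with adjuvant/Fat1562. The libraries of VAT with adjuvant alone thus stood apart from the other 9, with less transporter transcript for each heavy chain transcript. The difference between the tissues with adjuvant alone was -0.66 and the difference with the peptide in VAT was 0.58, both with p = 0.1 in a two-sided exact permutation test. That is the smallest p this number of libraries allows, so no ratio can pass 0.05, and it was 0.167 after adjustment over the 20 ratio tests made.

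The ratio of Tapbp to H2-K1 plus H2-D1 showed the same order, with group means for adjuvant alone of -3.93 ± 0.07 (SD) over 3 Spl/LN libraries and -4.70 ± 0.12 over 2 VAT libraries, and for adjuvant/Fat1562 of -4.01 ± 0.04 and -4.21 ± 0.09 over 3 libraries each. B2m against H2-K1 plus H2-D1 was at -1.47 ± 0.08 in Spl/LN and -1.56 ± 0.02 in VAT with adjuvant alone, and at -1.56 ± 0.05 in Spl/LN and -1.21 ± 0.08 in VAT with adjuvant/Fat1562. In this ratio it was VAT with the peptide that stood apart, with more light chain transcript for each heavy chain transcript. Nlrc5 against H2-K1 plus H2-D1 was -5.32 ± 0.03 and -5.04 ± 0.11 in Spl/LN and VAT with adjuvant alone and -5.50 ± 0.12 and -5.68 ± 0.14 with adjuvant/Fat1562 (p = 0.1 for the tissue difference with adjuvant alone and for the peptide in VAT and in Spl/LN, by the same exact test). Nlrc5 against Tap1 plus Tap2 had the widest difference, at -1.11 ± 0.12 in VAT with adjuvant alone against -2.33 ± 0.08 in VAT with adjuvant/Fat1562.

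**Figure D3:**
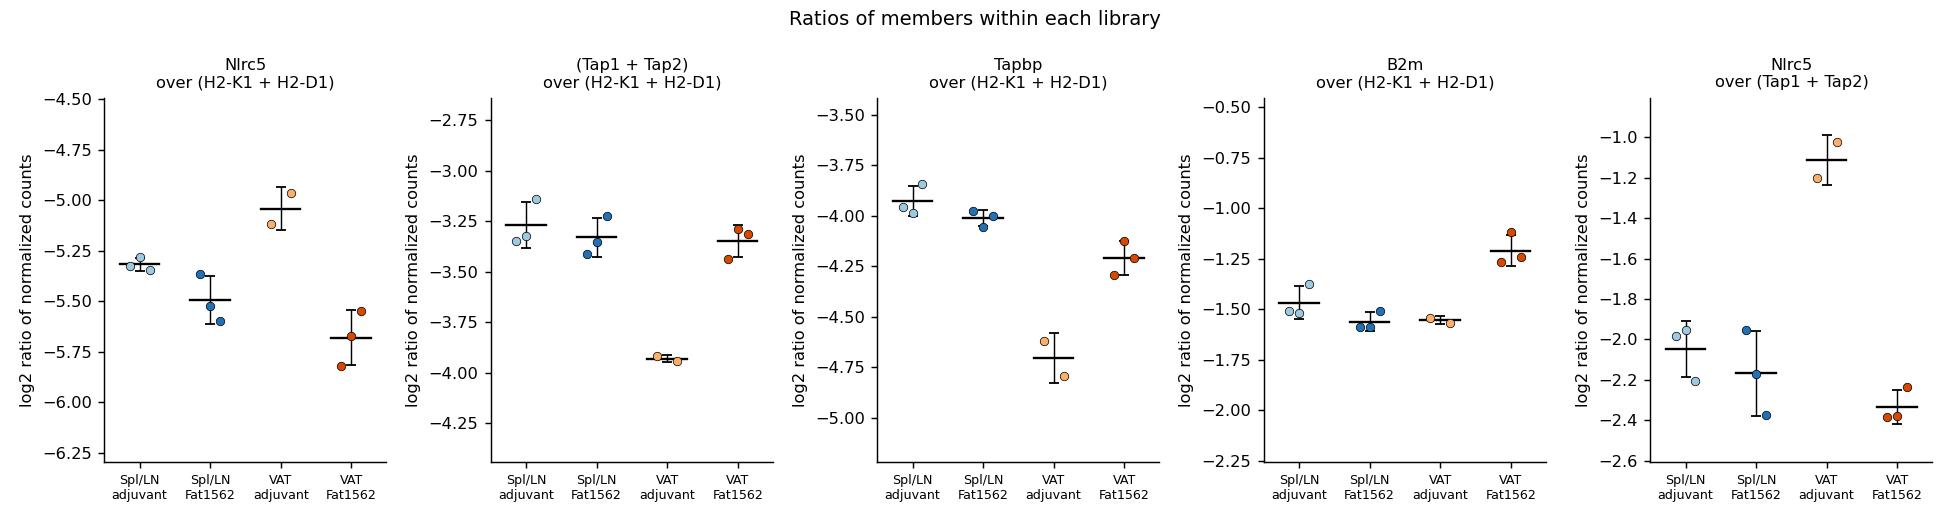
Log2 ratios of normalized counts within each library (vertical axis) for 5 pairs of members or sums of members in the 4 groups (horizontal axis), 1 point per library, with means as lines and SDs as bars. The 2 libraries of VAT with adjuvant alone, at -3.92 and -3.94, lie below all 9 others for Tap1 plus Tap2 over H2-K1 plus H2-D1 and, at -1.20 and -1.02, above them for Nlrc5 over Tap1 plus Tap2.

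Correlations across the 11 libraries are given as a description, since the libraries of a group share their condition. On log2 normalized counts, Pearson's r was 0.99 between H2-K1 and H2-Q7, 0.97 between H2-K1 and H2-D1 and 0.82 between H2-K1 and H2-T23. It was 0.90 between Tap1 and Tap2, 0.81 between Tap1 and Tapbp and 0.81 between Tap2 and Tapbp. Between heavy chains and the transporter it ran from -0.24 for H2-Q4 with Tap2 to 0.22 for H2-Q7 with Tap2. Nlrc5 correlated at 0.84 with H2-D1 and 0.82 with H2-K1, and at -0.33 with Tap1 and -0.22 with Tap2. B2m correlated at 0.67 with H2-K1 and at 0.36 with Nlrc5. Among the tested genes that are no members, those most like the members' mean profile over the 11 libraries were H2-T22 (r = 0.95), Lztr1 (0.91), Mtss1l (0.89), Commd6 (0.88) and H2-Q5 (0.86). H2-T22 and H2-Q5 are themselves class I heavy chain genes, and H2-Q5 shares 38-base stretches with H2-Q7.

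Other genes of the pathway were taken from lists. Of 16 other class I and class I-like chains with a row, 11 were tested. Among these was H2-Q6, a Q-region gene next to H2-Q7. It was called in the same direction as H2-K1, H2-D1 and H2-Q7 between the tissues with adjuvant alone and with the peptide in VAT. It was at 4563, 5604 and 5067 normalized counts in Spl/LN with adjuvant alone, 6516 and 6322 in VAT with adjuvant alone and 4193, 3565 and 3931 in VAT with adjuvant/Fat1562. H2-Q6 had a log2 fold change of 0.34 (adjusted p = 0.0186) between the tissues with adjuvant alone and -0.72 (adjusted p = 8.39e-05) with the peptide in VAT. H2-K2, which the annotation lists as a pseudogene, fell with the peptide in VAT (-0.54, adjusted p = 0.0246). Cd1d1, a lipid-presenting chain that also pairs with B2m, was lower in VAT than in Spl/LN with adjuvant alone (-1.14, adjusted p = 0.00351). Of the 11 tested, 1 was higher and 1 lower between the tissues with adjuvant alone, against 9.09% and 7.17% of all genes. With the peptide in VAT 2 were lower, against 3.97% of all genes. After the peptide, 4 were lower in VAT than in Spl/LN and 0 were higher, against 6.73% of all genes lower. H2-Q1, H2-T3, H2-M2 and H2-M5 were near 0, at no more than 6.39 normalized counts in any library.

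The immunoproteasome and its activator, which make class I peptides, did not rise with the heavy chains. With adjuvant alone 3 of 5 genes were lower in VAT and none was higher, against 7.17% of all genes lower and 9.09% higher. Psme2, a subunit of the PA28 activator, was at 1729, 1791 and 2125 in Spl/LN and at 1394 and 977 in VAT (log2 fold change -0.67, adjusted p = 0.00395). Psme1, its partner, was at -0.49 (adjusted p = 0.00328) and Psmb10, a catalytic subunit of the immunoproteasome, at -0.53 (adjusted p = 0.0146). The other 2 catalytic subunits, Psmb8 and Psmb9, were not called. In VAT Psme2 was higher with the peptide, at 1996, 2319 and 1891 (log2 fold change 0.80, adjusted p = 0.00196), which was the only call of the 5 genes there. The median log2 fold change of the list was -0.49 between the tissues with adjuvant alone and 0.22 with the peptide in VAT.

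Of 11 chaperones and trimming peptidases, 1 was lower and 1 higher in VAT with adjuvant alone, against 7.17% and 9.09% of all genes. Tapbpl, a tapasin relative that edits peptides, was lower (-0.43, adjusted p = 0.0443). Pdia3, the disulfide isomerase of the loading complex, was higher (0.29, adjusted p = 0.0396). None of the 11 was called with the peptide in VAT by edgeR. There 2 had an unadjusted p under 0.05, against 2714 of all 12932 genes tested.

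Of 18 genes of interferon input and class I transcription, 2 were higher and 1 lower in VAT with adjuvant alone, a share near the 16.3% of all genes called. Ifngr1, a chain of the interferon gamma receptor, was at 2805, 3393 and 3118 in Spl/LN and at 14206 and 14644 in VAT, a log2 fold change of 2.22 (adjusted p = 1.40e-11). Ifnar1, of the type I interferon receptor, was at 0.64 (adjusted p = 0.000314). Irf1, a transcription factor that interferon gamma induces, was at 1953, 2588 and 2397 in Spl/LN and at 1777 and 1769 in VAT (-0.38, adjusted p = 0.0388). With the peptide in VAT, Ifngr1 (-0.34, adjusted p = 0.0269) and Irf9 (-0.39, adjusted p = 0.0329) fell and none of the 18 rose. Over all genes 3.97% were called lower there. In Spl/LN Ifngr1 rose with the peptide to 4650, 5140 and 4348 (0.60, adjusted p = 0.000329). After the peptide, 5 of the 18 were lower in VAT than in Spl/LN and 1 was higher, against 6.73% of all genes lower. The 5 were Irf1 (-0.63), Stat2 (-0.65), Irf9 (-0.48), Nfyb (-0.40) and Rela (-0.33), and the 1 was Ifngr1 (1.28).

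Class II genes depend on the transactivator CIITA. Of 8, none was higher and 2 were lower in VAT with adjuvant alone, where 7.17% of all genes were lower, namely H2-Ob (-1.59, adjusted p = 0.000588) and Cd74, the invariant chain (-0.85, adjusted p = 0.000111). Not all estimates were negative, with H2-Eb1 at 0.98 and not called. Cd74 was at 1451, 1313 and 1169 in Spl/LN and at 720 and 733 in VAT with adjuvant alone, and it was higher in VAT with the peptide, at 950, 1162 and 1167 (0.59, adjusted p = 0.00626). After the peptide, H2-Aa, H2-Ab1 and H2-Eb1, the class II chains, were higher in VAT than in Spl/LN and H2-Ob was lower, against 15% of all genes called. H2-Aa and H2-Ab1 fell with the peptide in Spl/LN, against 3.98% of all genes called. H2-Aa was at 179, 8.33 and 27.4 in Spl/LN with adjuvant alone and at 2.86, 0 and 0 there with the peptide, so its level in the first group rested mostly on 1 library. Its difference between the tissues after the peptide is set against Spl/LN libraries at or near 0. Ciita itself was between 14.6 and 57.0 normalized counts in all libraries.

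**Figure D4:**
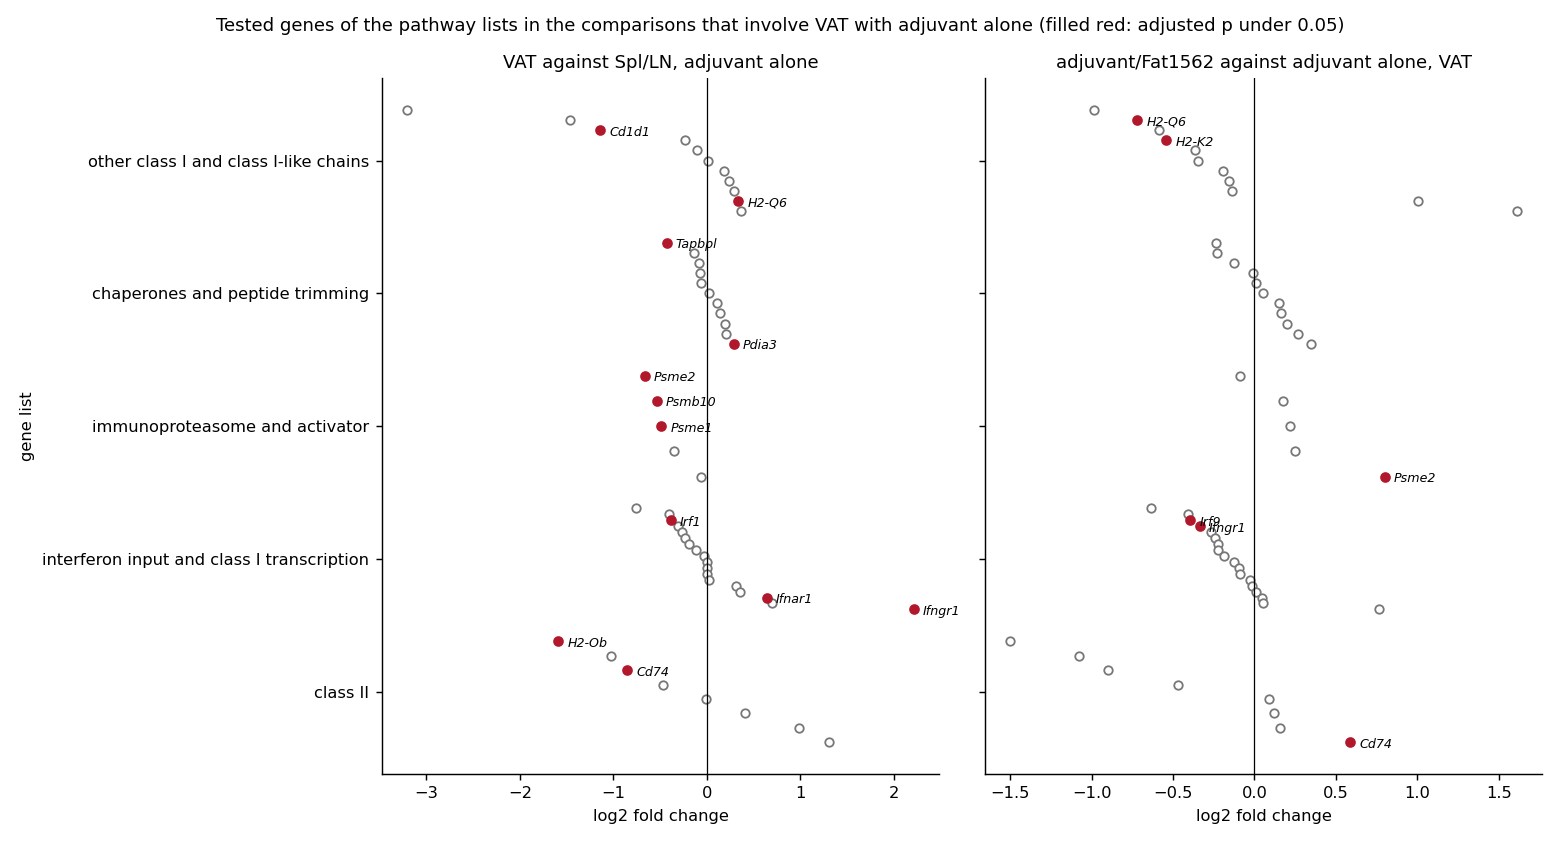
Log2 fold changes (horizontal axis) of the tested genes of 5 pathway lists (vertical axis), 1 point per gene, between VAT and Spl/LN with adjuvant alone (left) and in VAT between adjuvant/Fat1562 and adjuvant alone (right), with called genes in filled red and named. In the left panel the immunoproteasome and activator genes lie below 0, with Psme2 at -0.67, and Ifngr1 stands at 2.22, and in the right panel H2-Q6 is at -0.72 and Psme2 at 0.80.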

How the data were processed

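RNA was measured by Smart-seq2 in 11 libraries of 1000 sorted cells, without molecular identifiers, so errors cover counting and the spread between libraries but not molecules lost before amplification. The authors deposited raw counts, whole numbers per gene without normalization, for 52997 genes, from paired reads of 38 bases. The submitters' processing notes name mm10, STAR 2.5.4 and featureCounts, and the methods name Cuffquant. The annotation, the treatment of reads with several matches and the use of strand are not given in the sources used here. All 11 columns matched a sample label, 0 did not, and replicate numbers came from the labels.

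Counts were brought to the mean library total, and the 12932 genes whose average passed 10 in some group entered the quasi-likelihood test of edgeR 4.0.16 (R 4.3.3), as 1 fit of 4 groups with TMM factors and a prior count of 0.125. P-values were adjusted by Benjamini-Hochberg over all genes tested in each comparison, and a gene was called under 0.05. Standard errors come from the log2 fold change and its F statistic, and intervals are 95%. Total counts were 4490242 to 6570057 per library, and the common biological coefficient of variation over all genes was 19.1%. Ratios were tested by two-sided exact permutation.

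The members and gene lists were chosen with earlier results of these data known. A gene of the interferon list is not reported here. All 10 members are named. From each list, up to 6 called genes with the largest changes are named, with genes at or near 0, and the genes most like the members were the 5 tested genes with the highest correlation to their mean profile. Psmb8, Psmb9 and Ciita, and the marker genes named, were chosen after their values were seen.

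The alternatives were no filter, a mean above 50, median-of-ratios factors, upper-quartile factors, DESeq2 1.42.0, limma 3.58.1 on quantile-normalized and, chosen after seeing the data, cyclic-loess-normalized log2 CPM, only the groups compared, the replicate number as a block, heavy chain counts summed, and each library left out. The steps were tested on simulated data. Positions and shared 38-base stretches came from GENCODE vM21 (GRCm38), and promoters from RefSeq (GRCm38.p6).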

Additional observations from a re-analysis of the deposited data

Results flagged for a closer look

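The response to Fat1562 differed between VAT and Spl/LN for 7 genes of the members and pathway lists, by the interaction term of edgeR's quasi-likelihood fit (the log2 fold change in VAT minus that in Spl/LN, adjusted over all genes tested). For the members these were Nlrc5 (-1.13, adjusted p = 7.48e-05), H2-D1 (-0.68, adjusted p = 0.00103), H2-K1 (-0.66, adjusted p = 0.00386) and H2-Q7 (-0.65, adjusted p = 0.0160). Nlrc5 was lower in each VAT library with the peptide than in both VAT libraries with adjuvant alone, and its interval in Spl/LN ran from -0.17 to 0.18. Among the pathway lists they were H2-Q6 (-0.63, adjusted p = 0.00806), Ifngr1 (-0.94, adjusted p = 0.000313), which fell with the peptide in VAT and rose in Spl/LN, and Cd74 (0.83, adjusted p = 0.00807), which rose in VAT. These are 1 of 11 other chains tested, 1 of 18 genes of the interferon list and 1 of 8 class II genes. None of the 11 chaperones and peptidases or the 5 immunoproteasome genes was called. Over all genes 3.72% were called, so 1 call in such a list is not read as a result about that list. The summed level of the dissociation and stress genes, 10476 to 12387 normalized counts in VAT with adjuvant alone and 3855 to 6219 in VAT with the peptide, moved with the same libraries. Its part in the values of these 7 genes was not tested. All 6 VAT Treg markers were called negative in the interaction, against 2.02% of all genes, and their part was not tested either.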

How the results depend on the processing

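Of 15 called results for the members, 4 were called under every alternative, namely Nlrc5 between the tissues with adjuvant alone (0.56 to 0.85), with the peptide in VAT (-1.14 to -1.03) and in the interaction (-1.20 to -0.97), and Tapbp between the tissues after the peptide (-0.48 to -0.30). The other 11 lost their call under at least 1 alternative, and 8 of 35 uncalled results gained one. Calls of H2-K1, H2-D1, H2-Q7 and B2m were among those lost under quantile normalization, and for H2-D1 and B2m the log2 fold change between the tissues with adjuvant alone was then 0. Each called result of H2-K1 and H2-D1, ranked 4 and 5 by abundance, was lost under quantile normalization only. That normalization gives the genes at each rank the same value in every library. With 2 VAT libraries with adjuvant alone, each of them carries much of 2 comparisons and of the interaction, and where 1 is left out the other is assumed to vary like the libraries of the other groups.

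Members called were 4 under quantile and 5 under cyclic-loess normalization, against 2, between the tissues after the peptide, and 2 under quantile normalization, against 4, both with the peptide in VAT and in the interaction. Over all genes, the calls with the peptide in Spl/LN went from 515 to 793 without a filter and to 793 with DESeq2, and those of the interaction from 481 to 776 with DESeq2. Between the tissues with adjuvant alone, 1175 genes were higher and 927 lower, against 1063 and 1246 under quantile normalization. In the interaction the split was 220 and 261, against 268 and 224 under quantile normalization. The causes were not tested.

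With each library left out, genes called ranged from 1259 (without VAT adjuvant alone replicate 1) to 2114 between the tissues with adjuvant alone, from 1289 (without VAT adjuvant/Fat1562 replicate 2) to 2377 after the peptide, from 508 (without VAT adjuvant alone replicate 2) to 1398 with the peptide in VAT, from 190 (without Spl/LN adjuvant/Fat1562 replicate 2) to 502 in Spl/LN and from 240 (without VAT adjuvant alone replicate 1) to 575 in the interaction. Members called ranged from 4 to 5, 1 to 3, 3 to 4, 0 to 0 and 3 to 4 in the same order.

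Signs turned 46 times, and none of these values was called. Under quantile normalization these were H2-T23 between the tissues after the peptide (-0.0033), B2m with the peptide in VAT (0.14), B2m (-0.0061), Tapbp (-0.0077) and Nlrc5 (-0.063) with the peptide in Spl/LN, and the interactions of B2m (0.15), Tap1 (0.17), Tap2 (0.069) and Tapbp (0.14). Under cyclic loess they were Tapbp with the peptide in VAT (-0.0028), B2m (-0.046) and Nlrc5 (-0.073) in Spl/LN, and the interactions of Tap1 (0.062) and Tap2 (0.040). Tapbp with the peptide in VAT was at -0.0057 with median-of-ratios factors, -0.0069 with upper-quartile factors and -0.0060 with DESeq2. Nlrc5 with the peptide in Spl/LN was at -0.0082 with a mean above 50, -0.015 with upper-quartile factors and -0.0010 with only the groups compared. The summed heavy chains were at 0.17 with the peptide in Spl/LN, where H2-Q4 alone was at -0.24. With libraries left out, the values that turned lay within these ranges: H2-Q4 from -0.068 to 0.30 between the tissues with adjuvant alone and from -0.23 to 0.056 after the peptide, H2-T23 from -0.029 to 0.10 after the peptide and from -0.068 to 0.083 with the peptide in Spl/LN, Tapbp from -0.13 to 0.17 with the peptide in VAT, Nlrc5 from -0.035 to 0.074 with the peptide in Spl/LN, and in the interaction Tap1 from -0.13 to 0.067, Tap2 from -0.088 to 0.052 and Tapbp from -0.23 to 0.069.

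Libraries with the same replicate number deviated together only weakly between the tissues (correlations of 0.0274 to 0.0565). Libraries with different numbers were not compared in this way, so whether the numbers mark shared recipients remains unknown. With the replicate number as a block, genes called were 1804, 1861, 990, 515 and 435 in the order above, and the block changed 0 of the members' calls.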
